A study of Mus musculus with 8 samples.

Results

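The genes described here handle heme and iron: Hmox1, Blvrb, Cd163, Slc40a1, Slc11a1, Slc11a2, Tfrc, Trf, Fth1 and Ftl1. They were taken by gene symbol, and all 10 were found among the 21848 genes of the matrices. Single cells had been sequenced from the right sensorimotor cortex 6 days after photothrombosis (PT), a light-induced cortical ischemic stroke, in 4 control mice given saline and 4 mice given 2.4 U ancrod per day. Ancrod is a snake venom enzyme that depletes fibrinogen, and both solutions came from subcutaneous osmotic minipumps implanted 2 days before PT, so all 8 mice carried a pump and an injury. Each mouse was 1 library. By the labels, injury and sequencing took place in 2 batches, the first with replicates 1 to 3 of both groups and the other with replicate 4 of both. The labels give the genotype as Bl/J6 and the sex as female, whereas the methods of the study name C57BL/6N mice of both sexes aged 8–12 weeks, and this was not settled. No transgene, deletion or uninjured group entered these libraries. The tissue had been cleared of meninges, red blood cells had been lysed and myelin had been removed with beads, without enrichment of a cell type. Red cells carry most heme, and oligodendrocytes much of the iron of the brain.

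As background, heme is freed when red cells die, and macrophages take up haemoglobin bound to haptoglobin through the scavenger receptor Cd163. Heme oxygenase 1, encoded by Hmox1, opens the heme ring to biliverdin, carbon monoxide and iron, and biliverdin reductase B, encoded by Blvrb, reduces biliverdin and flavins. Iron travels in blood on transferrin (Trf), enters cells through the transferrin receptor (Tfrc), crosses endosomal and phagosomal membranes through Slc11a2 (DMT1) and Slc11a1 (NRAMP1), is stored in ferritin made of heavy (Fth1) and light (Ftl1) chains, and leaves through ferroportin (Slc40a1). Iron regulatory proteins bind a hairpin called the iron-responsive element when iron is low. They block translation where the hairpin lies in the 5′UTR and stabilise the transcript where it lies in the 3′UTR, so that a cell's mRNA level of ferritin or ferroportin does not by itself give the protein level.

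A search for this hairpin found it in 5 of the 10 genes, at 8 places, and the sequences are shown because they set Tfrc and Slc11a2, with the hairpin in the 3′UTR, apart from ferritin and ferroportin, with the hairpin in the 5′UTR. Trf and Slc11a1, also genes of iron import, held no match. The annotation was GENCODE on GRCm39. The motif was a bulged C, 5 bases of any kind and the loop CAGTGN on the transcribed strand, with those 5 bases paired, G to T pairs allowed and at most 1 mispair. Capitals mark the bulged C and the loop.

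Slc40a1, 5′UTR: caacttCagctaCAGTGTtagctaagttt
Fth1, 5′UTR: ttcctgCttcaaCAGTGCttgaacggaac
Ftl1, 5′UTR: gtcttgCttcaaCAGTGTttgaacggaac
Slc11a2, 3′UTR: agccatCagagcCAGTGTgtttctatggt
Tfrc, 3′UTR, first site: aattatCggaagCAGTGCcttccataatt
Tfrc, 3′UTR, next site: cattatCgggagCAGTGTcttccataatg
Tfrc, 3′UTR, next site: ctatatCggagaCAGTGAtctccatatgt
Tfrc, 3′UTR, last site: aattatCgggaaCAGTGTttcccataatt

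The Slc40a1 site lay at chr1:45964625-45964653 on the minus strand in exon 1 of 8. The ferritin sites were in exon 1 of 4 of both genes, at chr19:9960096-9960124 on the plus strand for Fth1 and at chr7:45109203-45109231 on the minus strand for Ftl1. Both carried the same 5 bases between the bulge and the loop. The Slc11a2 site, at chr15:100293034-100293062 on the minus strand, was in exon 16 of 16 of a transcript that is not the canonical one, and it held 1 mispair. The 4 Tfrc sites found were in exon 19 of 19 on the plus strand. They lay at chr16:32450037-32450065, chr16:32450416-32450444, chr16:32450481-32450509 and chr16:32450528-32450556. A hairpin with another loop would not have matched the motif, so the sites of a gene may not be complete. The same search matched 378 of 21594 protein-coding genes in the 5′UTR (1.75%) and 1271 in the 3′UTR (5.89%). A match describes letters in the reference and no binding was measured. The libraries count the 3′ ends of transcripts and do not separate transcripts of Slc11a2 with and without the site.

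Droplets with at least 2000 UMIs and less than 20% mitochondrial UMIs were kept, 46216 in all, of which 44072 remained after doublet removal, 22065 from control and 22007 from ancrod mice. Library totals were 97861434 to 122758649 UMIs in control and 126682918 to 142139441 UMIs in ancrod mice, without overlap, and the part of this depth in the differences below was not tested. Of the kept droplets' barcodes, 274 occurred in more than 1 library, with 3 to 15 shared by any pair. The cells were clustered without the 10 genes and without the other genes of the pathway, and clusters were named "-like" from marker genes. The largest classes were microglia-like (17011 cells), endothelial-like (7022 cells), astrocyte-like (3606 cells), inflammatory macrophage-like (3238 cells) and fibroblast-like (2030 cells), and 5405 cells were left unnamed. Neuron-like cells numbered 515, and no cluster was named oligodendrocyte-like, so that levels in these iron-rich cells were not described. Levels below are in CPM, the UMIs of a gene scaled to the summed UMIs of its class in a mouse, and are given as mean ± SD over mice, and levels of different genes were not compared with each other. Differences between classes are given as descriptions without a test. The sum over all cells does not by itself tell fewer cells of a type from less RNA per cell. Cell numbers and depth of endothelial-like cells are therefore given with Tfrc below.

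**Figure D1:**
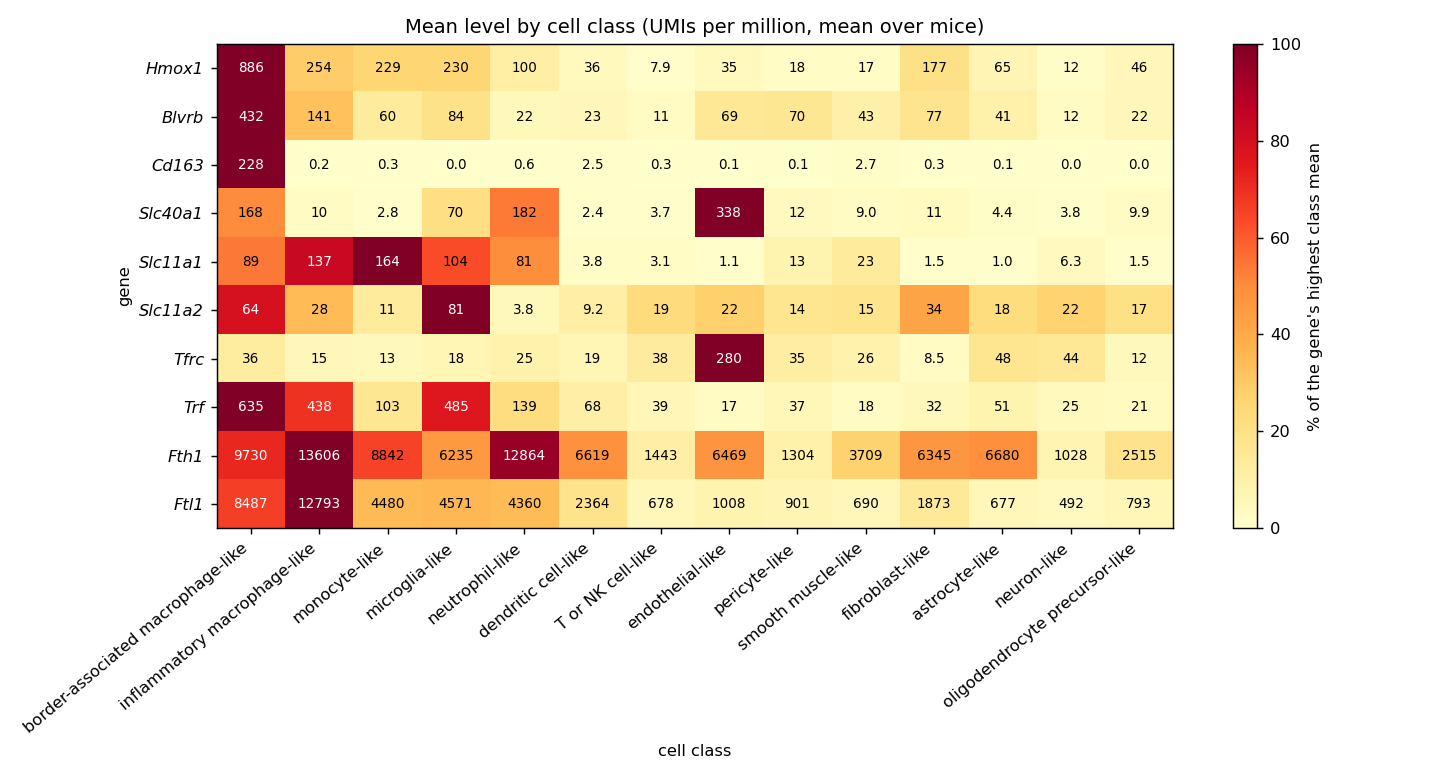
Mean level of each gene (rows, CPM) in each cell class (columns), averaged over mice, with colour giving the percentage of the gene's highest class. Cd163, Hmox1, Blvrb and Trf were highest in border-associated macrophage-like cells, Slc40a1 and Tfrc in endothelial-like cells, and Fth1 and Ftl1 in inflammatory macrophage-like cells.

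Cd163, the haemoglobin scavenger receptor, was a gene of border-associated macrophage-like cells. This class, led by Mrc1, Ccl8, F13a1 and Cbr2, held 692 cells, 62 to 129 per mouse. Its Cd163 level was 203, 328, 243 and 203 CPM in control mice and 327, 135, 172 and 217 in ancrod mice. The groups overlapped, with control 2 and ancrod 1 at the top, while ancrod 2 and ancrod 3 lay below every control mouse. The mean was 228 ± 68.8 (n = 8 mice), whereas the next class, smooth muscle-like, had 2.69 ± 2.50 and inflammatory macrophage-like and microglia-like cells had 0.196 ± 0.0801 and 0.0305 ± 0.0364. Of all Cd163 UMIs, 91.0% ± 3.48 came from border-associated macrophage-like cells, which were 1.33% of control cells and 1.81% of ancrod cells. After thinning to 2000 UMIs per cell, 27.9% ± 6.91 of these cells had a Cd163 UMI (53.6% before thinning). Dendritic cell-like cells followed with 0.553%, and before thinning 0.0564% of microglia-like cells had a UMI, at a median depth of 15436 UMIs per cell against 22744 in border-associated macrophage-like cells. Its position was chr6:124281606-124307560.

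Hmox1, the inducible heme oxygenase (chr8:75820241-75827217), was also highest in border-associated macrophage-like cells but was present in every class of macrophages. Its level there was 1692, 804, 1141 and 534 CPM in control mice and 1025, 680, 703 and 507 in ancrod mice. The highest mouse, control 1, had more than any of the others by a wide margin, and mouse 4 of each group was the lowest of its group. The mean of 886 ± 394 stood above 254 ± 31.3 in inflammatory macrophage-like, 230 ± 40.3 in microglia-like and 229 ± 124 in monocyte-like cells, which did not differ beyond their spread. Fibroblast-like cells followed with 177 ± 47.6, then neutrophil-like cells with 99.8 ± 54.8 and astrocyte-like cells with 64.5 ± 16.99. T or NK cell-like cells had 7.88 ± 4.11, below the 142 to 255 CPM in droplets of at most 100 UMIs that hold free RNA. Such droplets give the make-up of free RNA and set no floor for cells. The share of free RNA in cells was estimated at 0.316 to 1.57% per mouse, as described with the ferritin genes. Microglia-like cells, the most numerous class, gave 48.5% ± 11.1 of all Hmox1 UMIs, and border-associated macrophage-like cells gave 9.74% ± 3.53. With each cell thinned to 2000 UMIs, 59.7% ± 5.61 of border-associated macrophage-like cells had a Hmox1 UMI, 28.6% ± 3.28 of microglia-like and 1.58% ± 0.715 of T or NK cell-like cells. Before thinning these shares were 93.7, 74.4 and 6.63%.

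Within classes Hmox1 differed between clusters. Among astrocyte-like cells it was 156 ± 69.4 in the cluster led by Fabp7, Gfap and Myoc and 63.2 ± 28.8 in that led by Aldoc, Mt3 and Gfap, against 19.5 ± 4.88 in the cluster led by Gpc5, Slc1a2 and Clu. Gfap is the filament gene of reactive astrocytes. Among inflammatory macrophage-like cells it was 357 ± 205 in the cluster led by Lgals3, S100a4 and Cd36, whose leading genes also included the MHC class II genes H2-Aa, H2-Eb1 and H2-Ab1 and the invariant chain Cd74, and 235 ± 43.7 in the cluster led by Gpnmb, Lyz2 and Spp1, within their spread. Among endothelial-like cells the level was 71.2 ± 13.3 in the cluster led by Selp, Adamts9 and Ackr1 and 16.4 ± 5.02 in the cluster led by Ly6c1, Cxcl12 and Car4. Selp and Ackr1 mark venules, but the leading genes of the former cluster also included Aplnr, Igfbp3 and Cd93. The ranges of these clusters did not overlap.

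Blvrb (chr7:27147275-27165569), the biliverdin reductase B gene, had the same leading class and the smallest spread of the heme genes. Border-associated macrophage-like cells had 416, 450, 460 and 465 CPM in control mice and 407, 383, 455 and 418 in ancrod mice. All 8 mice thus lay close together and the groups overlapped. The mean of 432 ± 29.8 was followed by 141 ± 13.2 in inflammatory macrophage-like, 83.6 ± 8.78 in microglia-like and 77.4 ± 6.48 in fibroblast-like cells. Pericyte-like and endothelial-like cells had 69.8 ± 8.52 and 69.1 ± 4.58. Droplets of at most 100 UMIs had 81.8 to 124 CPM of Blvrb, which gives the make-up of free RNA and sets no floor for cells. Its lowest levels were 11.3 ± 2.87 in T or NK cell-like and 11.9 ± 4.98 in neuron-like cells. Blvrb is also abundant in red cells, and 29 erythrocyte-like cells, pooled over mice, held 29 Blvrb UMIs of 204360, or 142 CPM (exact Poisson 95% interval 95.04 to 204, counting error only). The same cells held no UMI of Hmox1, Cd163, Tfrc, Slc11a1 or Slc11a2, which allows up to 18.1 CPM for each. A single droplet of control 4 that clustered with microglia-like cells held 14175 haemoglobin UMIs of 44079, with 150 Blvrb and 62 Tfrc UMIs and none of Hmox1, Trf or Slc11a1.

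**Figure D2:**
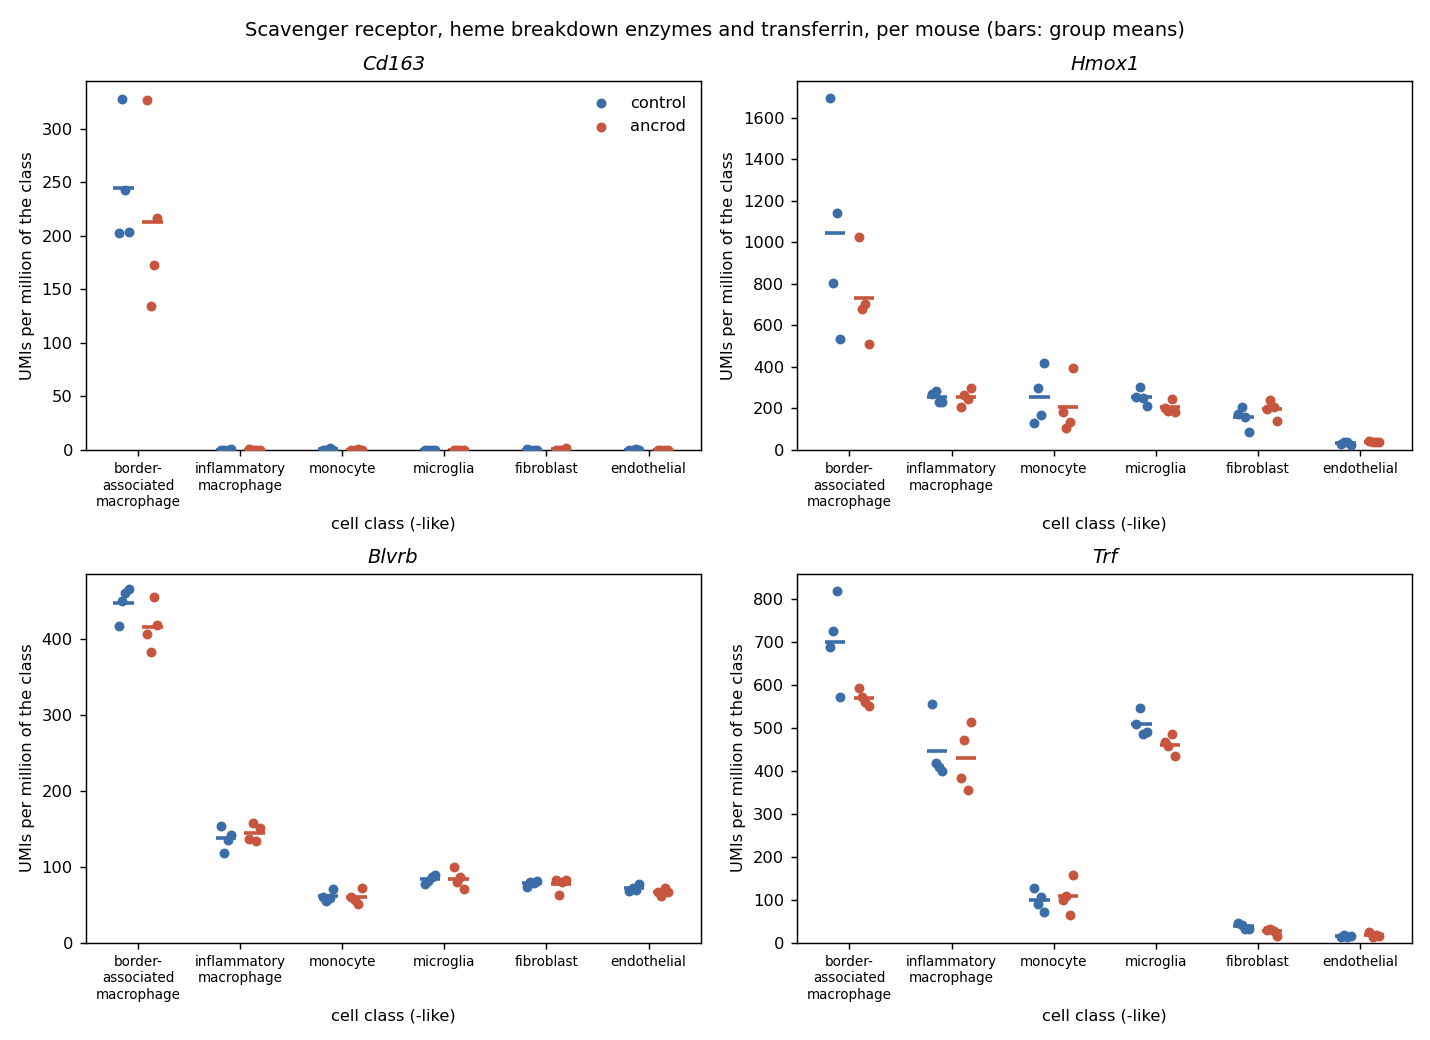
Levels of Cd163, Hmox1, Blvrb and Trf (CPM) in 6 cell classes, with 1 point per mouse in blue for control and red for ancrod and a bar at each group mean. The border-associated macrophage-like class stands highest in each panel, and control and ancrod points overlap there for all 4 genes.

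Trf, the transferrin gene (chr9:103081200-103107814), was read in brain macrophages rather than in vessels. It reached 635 ± 97.9 CPM in border-associated macrophage-like, 485 ± 34.1 in microglia-like and 438 ± 69.3 in inflammatory macrophage-like cells. The latter 2 classes did not differ beyond their spread. All other classes of the 14 had at most 139 ± 57.2, the value of neutrophil-like cells, and endothelial-like cells had the lowest mean, 16.5 ± 4.08. Microglia-like cells gave 66.8% ± 7.101 of all Trf UMIs, and after thinning 57.9% ± 2.97 of them had at least 1, against 2.20% ± 0.192 of endothelial-like cells (96.1 and 14.8% before thinning). Oligodendrocytes and the choroid plexus are the known sources of transferrin in the healthy brain, and neither was named among the classes here. Of the small classes, 57 ependymal-like cells, which line the ventricles, had 436 Trf CPM when pooled (404 to 469, counting error only), 48 of them from control 4. Within the inflammatory macrophage-like class Trf was 517 ± 67.1 in the cluster led by Gpnmb and Lyz2 and 88.3 ± 23.5 in the cluster led by Lgals3, S100a4 and the antigen presentation genes named above. Of the 8 fixed markers of the class, Lgals3 alone was among the 10 leading genes of the latter cluster, and its Trf level lay near the 68.0 of dendritic cell-like and the 103 of monocyte-like cells.

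Slc11a1, the phagosomal iron transporter of professional phagocytes (chr1:74414303-74425448), was highest in myeloid cells. Monocyte-like cells had 176, 169, 177 and 143 CPM in control mice and 150, 188, 152 and 156 in ancrod mice, a mean of 164 ± 16.0. Inflammatory macrophage-like cells had 137 ± 9.88, microglia-like cells 104 ± 7.64, border-associated macrophage-like cells 88.6 ± 15.7 and neutrophil-like cells 81.0 ± 43.6. The last 3 of these did not separate beyond their spread. Endothelial-like, astrocyte-like and fibroblast-like cells had 1.07 ± 0.262, 0.982 ± 0.474 and 1.46 ± 0.607. Dendritic cell-like cells, although myeloid, had 3.83 ± 3.66, below the 23.0 ± 8.18 of smooth muscle-like and the 13.05 ± 4.88 of pericyte-like cells. Slc11a2, the divalent metal transporter DMT1 (chr15:100285776-100322953), was broader. Microglia-like cells had 81.4 ± 11.3 and border-associated macrophage-like cells 64.4 ± 17.2, and fibroblast-like cells followed with 34.2 ± 8.77. Inflammatory macrophage-like and monocyte-like cells, which were high in Slc11a1, had 28.1 ± 3.50 and 11.3 ± 5.87 of Slc11a2. Among microglia-like clusters the level was 123 ± 14.4 in the cluster led by the cytokine genes Il1a and Tnf and 50.3 ± 7.98 in that led by Pde3b and P3h2, without overlap of the mice.

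Tfrc, the transferrin receptor (chr16:32427556-32451612), and Slc40a1, ferroportin (chr1:45947211-45965683), were both highest in endothelial-like cells, which form the wall across which brain iron passes. The Tfrc level there was 268, 290, 391 and 305 CPM in control mice and 212, 219, 311 and 243 in ancrod mice, a mean of 280 ± 58.6 over 8 mice. The next classes were astrocyte-like with 48.4 ± 5.47, neuron-like with 43.7 ± 10.4 and T or NK cell-like with 37.6 ± 6.31, which lay within each other's spread. Fibroblast-like cells had the lowest level, 8.54 ± 3.58. Endothelial-like cells gave 64.4% ± 10.8 of all Tfrc UMIs. The Slc40a1 level in endothelial-like cells was 334, 316, 353 and 400.2 CPM in control mice and 246, 346, 336 and 372 in ancrod mice, a mean of 338 ± 45.0, and 54.8% ± 9.01 of its UMIs came from them. Neutrophil-like and border-associated macrophage-like cells had 182 ± 84.1 and 168 ± 46.0, and microglia-like cells 70.5 ± 11.5. Inflammatory macrophage-like cells, the class richest in ferritin mRNA, had 10.1 ± 7.23, and monocyte-like cells 2.80 ± 3.56. After thinning, 44.7% ± 4.15 of endothelial-like, 13.02% ± 1.78 of microglia-like and 1.56% ± 0.644 of inflammatory macrophage-like cells had a Slc40a1 UMI (85.6, 52.9 and 12.8% before thinning).

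Endothelial-like clusters differed in both genes. Tfrc was 412 ± 94.4 in the cluster led by Slco1a4, Sema3c and Spock2 and 397 ± 87.5 in that led by Ly6c1, Cxcl12 and Car4, 2 clusters with capillary genes. It was 176 ± 39.0 in the cluster led by Gkn3, a gene of arterial endothelium, 244 ± 35.2 in that led by Il1r1, Ackr1 and Vwf, and 83.0 ± 39.0 in that led by Selp and Adamts9. Slc40a1 had the same order of clusters, with 466 ± 84.7 in the Slco1a4 cluster and 149 ± 41.7 in the Selp cluster. Fth1 gave another order, with 11099 ± 1331 in the Ackr1 and Vwf cluster and 9991 ± 2593 in the Selp cluster against 2187 ± 260 to 3023 ± 732 in the other endothelial-like clusters. The 2 clusters with Ackr1, a venular gene, thus had the highest ferritin heavy chain mRNA, and their mice did not overlap with those of the others. Leading genes of the Selp cluster also included Aplnr, Igfbp3 and Cd93, so its vessel type was not settled. Of its droplets 18.8% had been called doublets and removed. Median depth was 31812 UMIs per cell in the Ackr1 and Vwf cluster and 26736 in the Selp cluster. It was 5512 to 12224 in the others, and the part of depth in these levels was not tested.

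The ferritin chains Fth1 (chr19:9957911-9962462) and Ftl1 (chr7:45107367-45109308) were read in every class and were highest in inflammatory macrophage-like cells. Both genes have processed pseudogenes in the mouse genome, so their levels are uncertain where reads could be shared. Droplets of at most 100 UMIs had 6351 to 12087 CPM of Fth1 and 3469 to 6713 of Ftl1. The share of free RNA in cells, estimated from haemoglobin UMIs in microglia-like cells of at most 50 such UMIs, was 0.316 to 1.57% per mouse. Fth1 in inflammatory macrophage-like cells was 12248, 13110, 13341 and 14144 CPM in control mice and 15256, 14425, 13939 and 12386 in ancrod mice, a mean of 13606 ± 1031. Neutrophil-like cells had 12864 ± 6795, with ancrod 2 at 29208 and the other 7 mice between 7428 and 12760. Border-associated macrophage-like cells had 9730 ± 791 and monocyte-like cells 8842 ± 1103, within their spread. Neuron-like, pericyte-like and T or NK cell-like cells had the least of the 14 classes, from 1028 ± 430 to 1443 ± 182. Ftl1 had the same leading class with wider steps between classes. It was 12793 ± 854 in inflammatory macrophage-like and 8487 ± 526 in border-associated macrophage-like cells, 4571 ± 507 in microglia-like and 4480 ± 380 in monocyte-like cells, and 677 ± 63.5 in astrocyte-like cells. Astrocyte-like and endothelial-like cells had Fth1 at 6680 ± 1507 and 6469 ± 1165, near the 6235 ± 491 of microglia-like cells, while their Ftl1 was far below that of microglia-like cells.

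Among the 10 microglia-like clusters, the one with the most ferroportin mRNA had the least ferritin mRNA. This cluster, led by P3h2 and Csmd3, had 3244 ± 354 of Fth1, 2321 ± 301 of Ftl1 and 140 ± 24.2 of Slc40a1. Pooled over the mice of a group, it held 1502 of 9256 microglia-like cells in control and 558 of 7755 in ancrod mice. The part of these counts in the microglia-like ratios below was not tested. The cluster led by Cd5l, Igf1 and Lpl, the lipoprotein lipase gene, had the most ferritin mRNA, with 8706 ± 423 of Fth1, 8035 ± 649 of Ftl1 and 53.3 ± 7.74 of Slc40a1. Mice did not overlap between these clusters for any of the 3 genes. Median depth was 11006 UMIs per cell in the P3h2 and Csmd3 cluster and 27727 in the Cd5l, Igf1 and Lpl cluster. The part of depth in this contrast was not tested. The order was not strict, since the cluster led by Il1a and Tnf had the least Slc40a1, 41.2 ± 3.33, and 6202 ± 461 of Fth1. Among astrocyte-like clusters Fth1 was 10850 ± 1642 and 10916 ± 1276 in the 2 led with Gfap and 3669 ± 664 and 1389 ± 565 in the 2 led with Gpc5. The most Ftl1 of any cluster was in unnamed ones, 19381 ± 2192 in 180 cells led by Ccl8 and Pf4 and 18652 ± 1728 in 698 cells led by Cst7 and Cd5l. Their median depths were low, 2900 and 2959 UMIs per cell, against 27727 in the Cd5l, Igf1 and Lpl cluster. The Cst7 and Cd5l cluster was left unnamed for low depth and no marker among its leading genes. Whether depth had a part in these Ftl1 levels was not tested.

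The genes whose levels ran most alike over 13 classes in 8 mice (104 points, Pearson correlation of log2 levels, 13228 genes compared) were as follows, as a description of points that share libraries. Cd163 was most like Cd209f (r = 0.94) and Cd209g (0.93), lectin genes of border macrophages. Ftl1 was most like Plin2 (0.95), the lipid droplet coat gene, and Trf most like Sgpl1 (0.91). Hmox1 was most like Hacd4 (0.87) and Lamp2 (0.87), and Blvrb most like Vwa5a (0.83). Slc40a1 was most like Alas1 (0.82), the first enzyme of heme synthesis, and Tfrc most like Pcmtd1 (0.83). Slc11a2 was most like Fam91a1 (0.80) and Fth1 most like Gabarap (0.87).

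The other 49 pathway genes placed heme and iron functions in further classes. Alas1 was highest in endothelial-like cells with 244 ± 20.9 CPM, as was the transporter gene Flvcr2 with 94.2 ± 16.5 and the metal importer Slc39a8 with 138 ± 10.7. Neutrophil-like cells led in secreted proteins, with 2104 ± 1379.6 of lipocalin 2 (Lcn2) and 563 ± 610 of lactoferrin (Ltf), which bind iron or its carriers, and 1117 ± 366 of haptoglobin (Hp), which binds haemoglobin. Pericyte-like cells had the most ceruloplasmin (Cp), the ferroxidase that works with ferroportin, at 649 ± 106. Fibroblast-like cells led in Steap3 (176 ± 47.1), Slc39a14 (186 ± 29.5) and Bmp6 (122 ± 22.9), the last a signal for the iron hormone hepcidin. The constitutive heme oxygenase Hmox2 and Blvra, the main biliverdin reductase, were highest in the same class as Hmox1 and Blvrb, with 154 ± 11.6 and 145 ± 14.3 in border-associated macrophage-like cells. Spic, a factor of iron-recycling macrophages, was highest there too, at 13.7 ± 7.11.

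Ancrod was compared with control in each class, with UMIs summed per mouse, all genes fitted by edgeR's quasi-likelihood test and Benjamini-Hochberg adjustment at 0.05. In the sum of all cells 0 of 10 members passed the threshold, with 3 at an unadjusted p below 0.05, and 0% of all genes passed. Likewise 0 members passed in border-associated macrophage-like, inflammatory macrophage-like, microglia-like, monocyte-like, neutrophil-like, dendritic cell-like, T or NK cell-like, endothelial-like, smooth muscle-like, astrocyte-like, neuron-like and oligodendrocyte precursor-like cells, where 0% of all genes passed. In fibroblast-like cells 0 of 9 members passed against 0.0159% of all genes, and in pericyte-like cells 0 of 9 against 0.011%. Over the 14 classes 105 tests were made on members, 9 of which had an unadjusted p below 0.05 (8.57%), against 6.11% of the 131679 tests on all genes. Of the other pathway genes 0 passed in 411 class tests, 22 of which had an unadjusted p below 0.05, and 0 of 46 in the sum of all cells, with 5 below 0.05. By DESeq2, the other tool run, 0 member tests passed in the classes. Of the 131679 tests on all genes, 215 passed as higher and 133 as lower. In the sum of all cells 1 member passed, and 343 genes were called higher and 493 lower. DESeq2 gave no adjusted p for Slc11a1 in fibroblast-like cells. It also gave none for Hmox1, Blvrb, Slc40a1, Slc11a1, Slc11a2, Tfrc and Trf in pericyte-like cells, so these tests could not pass. With at most 4 mice a group, a p above the threshold does not show that the levels were alike.

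**Figure D3:**
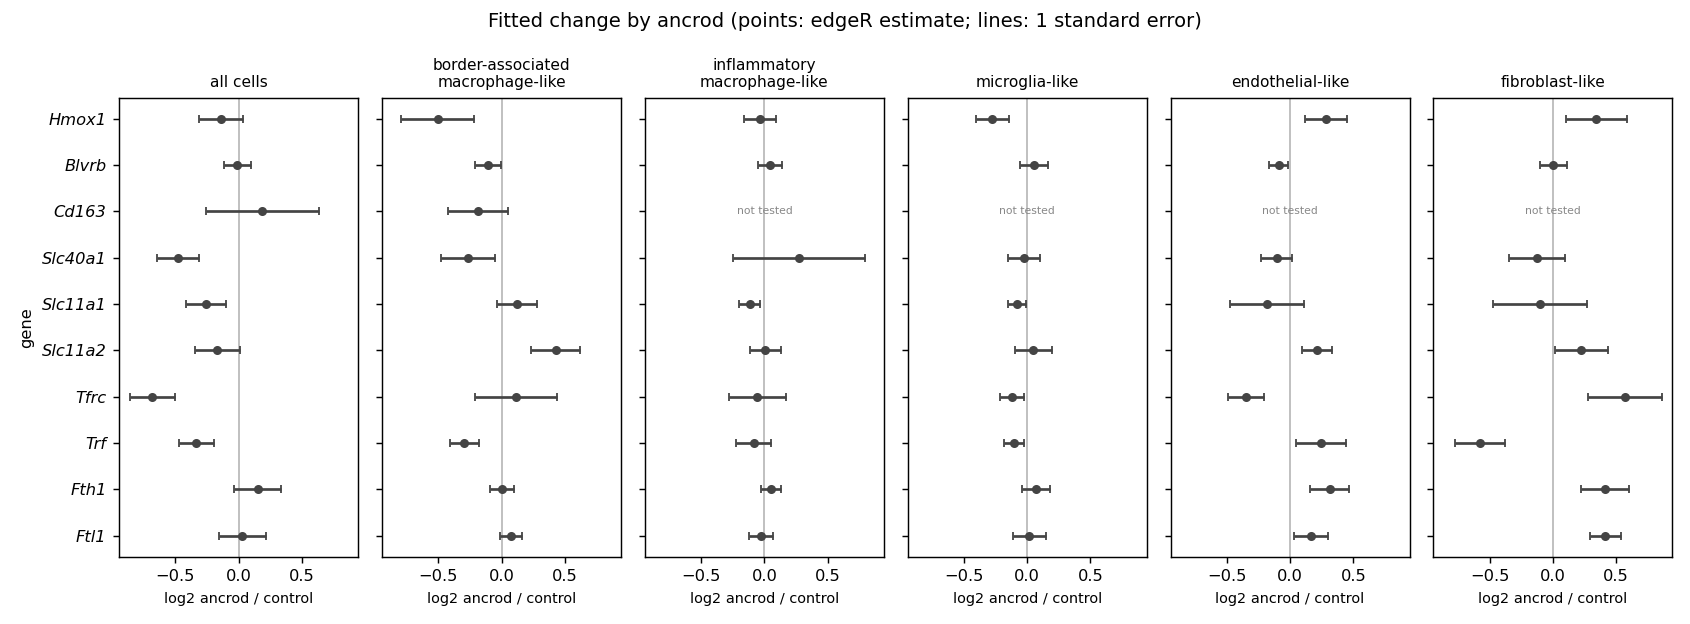
Fitted log2 ratio of ancrod to control (x axis) for each gene (y axis) in all cells together and in 5 classes, with the edgeR estimate as a point and 1 standard error on each side as a line. Tfrc in all cells has the lowest point among the members shown there, -0.68, and no estimate passed the adjusted threshold.

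Tfrc was the member with the smallest p in the sum of all cells. Its level was 74.7, 71.3, 102 and 71.1 CPM in control mice and 39.6, 53.5, 49.9 and 61.8 in ancrod mice. Every ancrod mouse lay below every control mouse, as for 4.36% of all genes tested. The fitted log2 ratio was -0.68 (SE 0.18, edgeR adjusted p = 0.191), and Tfrc, Slc40a1 and Trf were the 3 members with an unadjusted p below 0.05, as had 17.1% of all genes. By DESeq2 the ratio was -0.67 with an adjusted p of 0.0216, a threshold that 3.07% of all genes passed in the lower direction. Within batch 1 the fitted ratio was -0.83, and the single pair of mice of batch 2 gave -0.20. Here and below, a batch 2 value is the plain log2 ratio of the CPM of that pair and is not a fitted one. Endothelial-like cells, the class with most Tfrc, contributed 18.8, 18.5, 19.9 and 16.7% of UMIs in control mice and 8.33, 14.1, 9.31 and 16.2% in ancrod mice. That share, too, was lower in every ancrod mouse. Endothelial-like cells numbered 1023 to 1304 per control mouse and 385 to 817 per ancrod mouse. Their median depth was 7366 to 9810 UMIs in control and 11864 to 17176 UMIs in ancrod mice. Spared tissue around the lesion was excised with it. In the paper, shares of reactive fibroblasts and macrophages trended higher with ancrod, which it calls likely due to easier dissociation after reduced fibrosis. The part of cell recovery in the shares was not tested. With each class given the same share in all mice, Tfrc was 70.3 ± 10.6 in control and 58.8 ± 7.12 in ancrod mice, and the groups overlapped. The log2 ratio of these group means was -0.26, against -0.64 for the group means as measured, values that are not fitted ones. Within endothelial-like cells the control mean was 314 ± 53.9 and the ancrod mean 246 ± 45.4 (log2 ratio -0.35, SE 0.14, edgeR adjusted p = 0.536), where 9.2% of all genes had an unadjusted p below 0.05. The ratio there was -0.35 in batch 1 and -0.33 in batch 2.

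**Figure D4:**
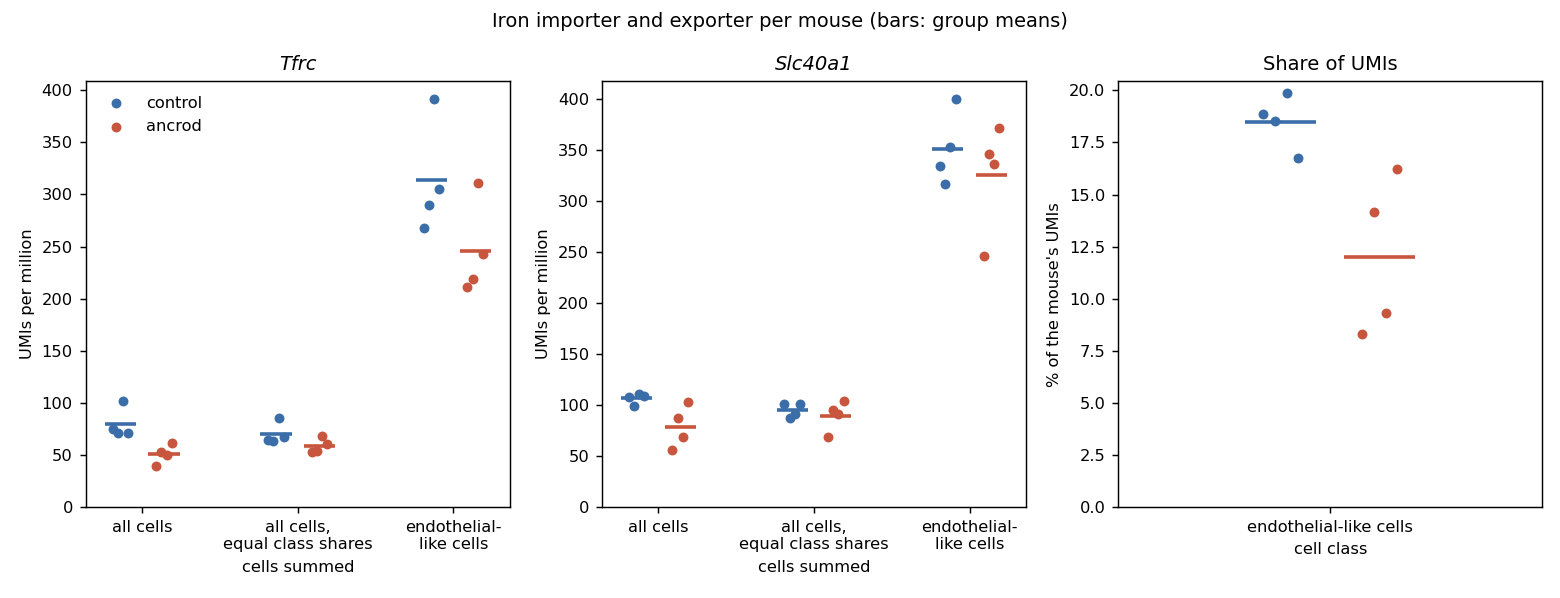
Tfrc and Slc40a1 (CPM) in all cells, in all cells with each class held at the same share, and in endothelial-like cells, and the share of each mouse's UMIs from endothelial-like cells (%), with 1 point per mouse in blue for control and red for ancrod and a bar at each group mean. Tfrc and the endothelial-like share separate the groups in all cells, and the groups overlap in endothelial-like cells and at equal shares.

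By endothelial-like cluster, Tfrc was 452 ± 99.2 in control and 372 ± 82.1 in ancrod mice in the Slco1a4 cluster, and 436 ± 113 and 358 ± 34.6 in the Ly6c1 and Car4 cluster. In the Gkn3 cluster it was 182 ± 45.1 and 171 ± 37.9, in the Ackr1 and Vwf cluster 249.5 ± 33.7 and 238 ± 40.8, and in the Selp cluster 76.6 ± 52.9 and 89.4 ± 25.2. These differences lay within the spread of the mice. The Ackr1 and Vwf cluster and the Selp cluster had less Tfrc than the clusters with capillary genes. Together they held 16.9% of endothelial-like cells in control and 26.8% in ancrod mice, with cells pooled over the mice of a group. The part of these shares in the class ratio of -0.35 was not tested.

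Slc40a1 and Trf were also lower on average in ancrod mice in the sum of all cells. Slc40a1 was 108, 99.2, 111 and 109 in control and 55.7, 87.3, 68.9 and 103 in ancrod mice, with ancrod 4 inside the control range. The log2 ratio was -0.48 (SE 0.17, edgeR adjusted p = 0.240). Within batch 1 it was -0.63 and in batch 2 -0.09. The log2 ratio of group means was -0.44 as measured and -0.08 at equal class shares, and within endothelial-like cells the means were 351 ± 36.1 and 325 ± 54.7. Trf was 298 ± 32.6 in control and 242 ± 28.2 in ancrod mice (log2 ratio -0.33, SE 0.14, edgeR adjusted p = 0.278), and microglia-like cells, its main source, gave 42.3% ± 4.68 of UMIs in control and 32.3% ± 4.79 in ancrod mice. Control 1 and ancrod 1 overlapped. At equal class shares Trf was 292, 305, 275 and 271 in control and 257, 264, 255 and 249 in ancrod mice. The log2 ratio of group means was then -0.16, against -0.30 as measured. At equal shares every ancrod mouse lay below every control mouse, as for 1.29% of all genes, whereas the groups overlapped for the other 9 members. The other 7 members had log2 ratios from -0.26 (Slc11a1) to 0.19 (Cd163) in the sum of all cells, with Hmox1 at -0.14, and their groups overlapped. Leaving out 1 mouse at a time moved the Hmox1 ratio between -0.23 (without ancrod 1) and -0.038 (without control 2), that of Slc11a1 between -0.36 (without ancrod 1) and -0.16 (without control 3) and that of Cd163 between -0.36 (without ancrod 1) and 0.45 (without ancrod 2). Fth1 within endothelial-like cells was 5785 ± 1025 in control and 7153 ± 934 in ancrod mice (log2 ratio 0.31), also with overlap. The Ackr1 and Vwf cluster and the Selp cluster, whose shares were given above, had the highest Fth1. By cluster, Fth1 was 11645 ± 1593 in control and 10554 ± 896 in ancrod mice in the former and 8128 ± 2052 and 11854 ± 1489 in the latter. It was 2618 ± 279 and 2803 ± 656 in the Slco1a4 cluster, 2605 ± 318 and 3441 ± 827 in the Ly6c1 and Car4 cluster, and 2041 ± 154 and 2334 ± 278 in the Gkn3 cluster. The part of the cluster shares in the class difference was not tested.

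In border-associated macrophage-like cells Trf was 688, 725, 819 and 572 CPM in control mice and 594, 571, 561 and 551 in ancrod mice. The ancrod mice were close together and 3 of them lay below all control mice. The log2 ratio was -0.30 (SE 0.11, edgeR adjusted p = 0.808), and 5.57% of all genes had an unadjusted p below 0.05 in this class. Slc11a2 differed the other way, 54.5 ± 13.9 in control and 74.3 ± 15.3 in ancrod mice (log2 ratio 0.43, edgeR adjusted p = 0.872). Hmox1 in this class, at 1043 ± 499 and 729 ± 216, had a log2 ratio of -0.50 (SE 0.29, edgeR adjusted p = 0.901), and Cd163 and Blvrb had ratios of -0.19 (SE 0.24) and -0.11 (SE 0.10). In batch 1 and batch 2 the ratios were -0.37 and -0.053 for Trf, 0.48 and 0.22 for Slc11a2, and -0.58 and -0.073 for Hmox1. For Cd163 they were -0.27 and 0.091, and for Blvrb -0.086 and -0.16, with a single pair of mice in batch 2. Without control 1 the Hmox1 ratio was -0.18. The Cd163 ratio was -0.48 without ancrod 1 and -0.014 without control 2, and it was also nearer to 0 without ancrod 2 or ancrod 3, and the Blvrb ratio was -0.071 without ancrod 2. In microglia-like cells Hmox1 was 257, 302, 249 and 211 in control and 203, 188, 244 and 184 in ancrod mice. The groups overlapped, and the log2 ratio was -0.28 (SE 0.13, edgeR adjusted p = 0.959). In inflammatory macrophage-like cells Hmox1 was 254 ± 26.1 and 253 ± 40.02.

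Fibroblasts lay down the matrix of the scar after injury. Fibroblast-like cells had 1475, 1738, 1790 and 1474 Ftl1 CPM in control mice and 1892, 2264, 1998 and 2350 in ancrod mice. Every ancrod mouse lay above every control mouse, as for 3.66% of all genes in this class. The log2 ratio was 0.41 (SE 0.12, edgeR adjusted p = 0.201), with 0.28 in batch 1 and 0.67 in batch 2. Unadjusted p below 0.05 was reached by 16.7% of all genes here. Fth1 was 4251, 5636, 6418 and 5574 in control and 8735, 8585, 6682 and 4877 in ancrod mice, with ancrod 4 inside the control range (log2 ratio 0.41, SE 0.19, edgeR adjusted p = 0.308). Trf was 46.5, 41.3, 31.6 and 32.7 in control and 29.3, 32.3, 25.8 and 15.9 in ancrod mice (log2 ratio -0.58, SE 0.20, edgeR adjusted p = 0.223). All but 1 ancrod mouse were below the lowest control mouse. Control 3 contributed the fewest fibroblast-like cells, 34. Cluster shares of this class were counted on cells pooled over the mice of a group, so they carry no spread over mice. Of the 1412 fibroblast-like cells of ancrod mice, ancrod 3 and ancrod 4 gave 552 and 463. The cluster led by Apod and Lum held 52.4% of fibroblast-like cells in control and 38.1% in ancrod mice, the cluster led by the collagen genes Col1a1 and Col1a2 35.3 and 40.8%, and the dividing cluster led by Ube2c 8.74 and 15.8%. Within them Ftl1 was 1629 ± 230 and 2129 ± 339 (3 control and 4 ancrod mice), 1591 ± 256 and 2148 ± 208 (4 and 4), and 1514 ± 66.3 and 1968 ± 280 (3 and 4). Trf, in contrast, was 77.6 ± 22.04 and 70.4 ± 23.6 in the Apod cluster, against 4.67 ± 2.70 and 5.16 ± 1.76 in the collagen cluster. The part of these shares in the Trf difference was not tested.

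The remaining members with an unadjusted p below 0.05 came from small classes or low levels. Hmox1 in dendritic cell-like cells was 21.7, 145, 12.3 and 35.6 in control and 19.0, 16.1, 25.4 and 12.9 in ancrod mice (log2 ratio -1.50, edgeR adjusted p = 0.636, with 7.09% of all genes below 0.05). Control 2 was far above the other mice, and without it the ratio was -0.22. Hmox1 in neutrophil-like cells was 76.7, 83.1, 70.2 and 59.1 in control and 71.7, 229, 96.5 and 112 in ancrod mice (log2 ratio 0.80, edgeR adjusted p = 0.982, with 3.88% of all genes below 0.05). Ancrod 2 was the highest, without it the ratio was 0.24, and control 1 rested on 10 neutrophil-like cells. Slc40a1 in pericyte-like cells was 9.08 ± 4.29 in control and 14.8 ± 1.73 in ancrod mice (log2 ratio 0.71, edgeR adjusted p = 0.554, with 8.84% of all genes below 0.05). Without 1 mouse the Slc40a1 ratio was 0.53 to 1.08 (without control 1). Ftl1 in smooth muscle-like cells was 585 ± 149 and 794 ± 201 (log2 ratio 0.46, edgeR adjusted p = 1.000, with 4.13% of all genes below 0.05), and without ancrod 2 the ratio was 0.29.

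The median log2 ratio of the 10 members was -0.15 in the sum of all cells, against -0.013 for all genes, and 7 of the 10 were negative, against 52.4% of all genes. Without 1 mouse the members' median was -0.30 (without ancrod 1) to -0.046 (without control 3). The medians were -0.02 in microglia-like, -0.03 in inflammatory macrophage-like and -0.05 in border-associated macrophage-like cells. In endothelial-like and fibroblast-like cells they were 0.16 and 0.22, against 0.005017 and 0.00067 for all genes, with ranges without 1 mouse of 0.0096 (without ancrod 1) to 0.25 (without control 2) and 0.12 (without control 3) to 0.43 (without control 2). The 6 members tested in neutrophil-like cells had a median of 0.61, against 0.017 for all genes there, but without ancrod 2, which had the highest Fth1, Ftl1, Slc11a1 and Hmox1 of the 8 mice, it was -0.010. The 9 tested in pericyte-like cells had a median of -0.12, against -0.0069, and -0.044 without ancrod 1.

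Among the other pathway genes, DESeq2 alone called 3 of 46 lower in the sum of all cells, against 3.07% of all genes, and 1 higher in endothelial-like cells. The 3 were the heme synthesis gene Alas1 (99.8 ± 8.56 in control and 76.4 ± 7.49 in ancrod mice, DESeq2 adjusted p = 0.0262, edgeR adjusted p = 0.190), the transporter gene Flvcr2 (22.5 ± 2.09 and 14.2 ± 4.20, DESeq2 adjusted p = 0.0384, edgeR adjusted p = 0.197) and the folate and heme carrier Slc46a1 (12.8 ± 0.782 and 10.1 ± 0.529, DESeq2 adjusted p = 0.0106, edgeR adjusted p = 0.187). Alas1 and Flvcr2 had their highest levels in endothelial-like cells, whose share of UMIs was lower in every ancrod mouse, and the part of that share in these differences was not tested. Within inflammatory macrophage-like cells Alas1 was 53.0 ± 2.49 in control and 42.9 ± 4.68 in ancrod mice. The groups did not overlap there, as for 41 of 11064 genes in the lower direction. It did not pass the adjusted threshold (edgeR unadjusted p = 0.0093), and it was picked out of 411 class tests after it had been seen. The gene called in endothelial-like cells was Steap3, the endosomal ferrireductase that acts after transferrin uptake, at 25.8 ± 3.35 in control and 37.7 ± 0.950 in ancrod mice. Its log2 ratio by DESeq2 was 0.54 (DESeq2 adjusted p = 0.00565, edgeR adjusted p = 0.370), and 0.244% of all genes passed by DESeq2 in this class. Cluster shares and depth of endothelial-like cells, given above, differed between the groups, and their part in the Steap3 difference was not tested. Haemoglobin genes, which mark red cells, made up 111 to 882 CPM of the kept droplets in control mice and 20.9 to 685 in ancrod mice, and the groups overlapped.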

How the data were processed

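Single-cell suspensions of the cortical injury site were run as 10x Genomics 3′ libraries, 1 per mouse. Raw UMI counts of all droplets, without normalisation, were deposited by the authors, who had processed the reads with Cell Ranger 7.1.0 (STAR) on GRCm39. The number of cells and of UMIs per mouse sets the precision, and intervals cover counting error only. Droplets with at least 2000 UMIs and less than 20% mitochondrial UMIs were kept. Doublets were removed by similarity to simulated mixtures, at 0.8% per 1000 droplets of the library, which took 4.06 to 5.02% per mouse. Cells were clustered with Leiden (leidenalg 0.10.2, resolution 2) on 3000 variable genes, 30 components and 20 neighbours, without the genes of the pathway, and clusters were named from marker lists or left unnamed. UMIs were summed per class and mouse where the mouse had at least 10 cells. The sums were tested with edgeR 4.0.16 (filterByExpr, TMM, glmQLFTest, R 4.3.3), with Benjamini-Hochberg adjustment over all genes of a class, and with DESeq2 1.42.0 as an alternative. The mouse was the replicate. For shares of cells with a UMI, each cell was thinned to 2000 UMIs. The edgeR test was checked on simulated data with known changes, whereas doublet removal and clustering were not. Equal class shares weighted each mouse's class levels by the mean share of the class over the 8 mice.

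The members and gene lists were chosen with earlier results of these data known. Genes were named where they were members, pathway genes past the threshold in a class, or among the 3 genes most like a member, of which 1 is not reported here. Other pathway genes were named for their highest class or their DESeq2 result after their values had been seen. The alternatives were DESeq2, another normalisation, no filter on low counts, other limits on droplets, coarser clusters, doublets kept, batch or replicate number as a term, batch 1 alone, subtraction of free RNA and leaving out each mouse in turn.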

Additional observations from a re-analysis of the deposited data

Results flagged for a closer look

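In 13 of 187 groups of 4 mice with a level of at least 20 CPM, 1 mouse stood apart from the other 3 (Dixon's test at 95%), and chance alone gives about 1 in 20 groups. In all cells, Tfrc was 102 in control 3 against 71.1 to 74.7 in the other control mice. In neutrophil-like cells, ancrod 2 had 29208 CPM of Fth1 against 10521 to 11593 and 12659 of Ftl1 against 2508 to 3350, and control 2 had 249 of Trf against 114 to 128. In pericyte-like cells, Tfrc was 55.9 in control 3 against 27.5 to 30.5, Trf was 54.6 in ancrod 4 against 28.4 to 30.3, and Fth1 was 1093 in control 4 against 1309.8 to 1339.5. Slc11a1 was 188 in monocyte-like cells of ancrod 2 against 150.2 to 156, and 38.5 in smooth muscle-like cells of control 4 against 15.6 to 17.4. Trf was 557 in inflammatory macrophage-like cells of control 1 against 400.2 to 417. Hmox1 was 44.7 in endothelial-like cells of ancrod 1 against 36.2 to 37.2. Blvrb was 16.9 in dendritic cell-like cells of ancrod 3 against 26.6 to 28.4, and 63.0 in fibroblast-like cells of ancrod 2 against 79.5 to 82.2.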

How the results depend on the processing

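By edgeR the number of genes past the threshold was 0 in each comparison apart from 2 in fibroblast-like and 1 in pericyte-like cells. DESeq2 called 836 genes in all cells, 244 in fibroblast-like, 47 in pericyte-like, 31 in endothelial-like, 8 in dendritic cell-like, 7 in border-associated macrophage-like, 5 in inflammatory macrophage-like, 2 each in microglia-like and monocyte-like and 1 each in astrocyte-like and T or NK cell-like cells, and 1 member, Tfrc in all cells (-0.67). Without the filter on low counts the numbers were 94 in neutrophil-like, 62 in pericyte-like, 18 in monocyte-like, 7 in border-associated macrophage-like, 5 in dendritic cell-like, 4 in T or NK cell-like, 3 in smooth muscle-like and 1 in inflammatory macrophage-like cells. With the replicate block they were 58 in pericyte-like, 4 in fibroblast-like, 3 in inflammatory macrophage-like, 2 in monocyte-like and 1 in endothelial-like cells, but in none of the comparisons checked did mice of every number deviate together at a correlation above 0.1 (-0.46 to 0.26 over all of them), although number 4, batch 2 in both groups, was positive in each (0.0098 to 0.26). A batch term gave 4 in fibroblast-like and 2 in pericyte-like cells, and batch 1 alone 15 in pericyte-like, 2 in dendritic cell-like and 0 in fibroblast-like cells. With doublets kept there were 11 in pericyte-like, 2 in all cells and 1 each in dendritic cell-like and inflammatory macrophage-like cells. The limit of 10% mitochondrial UMIs gave 0 in pericyte-like cells, coarser clusters 1 in fibroblast-like cells, and free RNA subtraction at 10% gave 1 in endothelial-like cells. Leaving out 1 mouse gave 0 to 74 in fibroblast-like (74 without ancrod 3), 0 to 54 in neuron-like (54 without ancrod 1), 0 to 17 in pericyte-like (17 without ancrod 4), 0 to 3 in dendritic cell-like, 0 to 2 in endothelial-like and 0 to 1 in all, monocyte-like and smooth muscle-like cells. The cause was not tested.

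Shares of cells with a UMI moved without thinning for 9 genes, and levels stayed within their spread except Fth1 in inflammatory macrophage-like cells, 11996 with coarser clusters, and Blvrb in border-associated macrophage-like cells, 465 with free RNA at 10%. Of the fold changes, those near 0 turned sign: Blvrb in all cells (-0.011) was 0.00181 by DESeq2, 0.00184 with RLE normalisation in edgeR, 0.000110 without the filter, 0.0632 in batch 1, 0.00431 at the stricter mitochondrial limit and -0.078 to 0.056 without 1 mouse. Cd163 in all cells (0.19) was -0.0175 with the replicate block and -0.36 (without ancrod 1) to 0.45 without 1 mouse. Ftl1 ranged from -0.093 to 0.16 in all cells and from -0.084 to 0.046 in inflammatory macrophage-like cells without 1 mouse. Slc11a2 in microglia-like cells was -0.11 in batch 1 and -0.079 to 0.17 without 1 mouse. The edgeR adjusted p of Tfrc in all cells ranged from 0.132 to 0.447. The planned subtraction of free RNA at the haemoglobin share gave a share above the total in control 4, where it rested on 1 cell, so that cells over 50 haemoglobin UMIs were left out, a choice made after seeing the data. Ancrod 2 had 6 oligodendrocyte precursor-like cells, under the limit of 10 per mouse. This class was thus tested on the other 7 mice, and leaving out ancrod 2 gave no further value. Slc40a1 in pericyte-like and Hmox1 in dendritic cell-like cells had no value with free RNA at 10%, where they fell under the filter. With at most 4 mice a group and as few as 10 cells in a class, small differences were not detectable.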

Other observations

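In border-associated macrophage-like cells Bach1, the heme-sensing repressor of Hmox1, was 193 ± 16.5 CPM in control and 265 ± 18.0 in ancrod mice, without overlap, as for 161 of 9451 genes in the higher direction (log2 ratio 0.46, edgeR adjusted p = 0.578, DESeq2 adjusted p = 0.0567). In smooth muscle-like cells it differed the other way, 142 ± 15.5 in control and 93.1 ± 16.0 in ancrod mice (edgeR adjusted p = 1.000). These values were picked out after they had been seen, and neither passed the threshold.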
